A study of Mus musculus with 21 samples.

Results

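The cytochrome P450 and oxidative detoxification enzymes of the mouse lung were described as a set of 37 genes, chosen by name from the 23238 gene symbols counted in the study. The choice was made with earlier results of these data known. The set holds P450 enzymes and the proteins that pass electrons to them, flavin monooxygenases, epoxide hydrolases, conjugation enzymes, aldehyde and amine oxidases, the aryl hydrocarbon receptor Ahr and its repressor Ahrr. Lungs of 21 C57BL/6 mice gave 1 library each, and every one of the 7 groups had 3 animals. Mice received saline, propylene glycol (PG, which carries the other ingredients in vaping liquids) at 826 or 1100, 10% ethanol, or vitamin E acetate (VEA, an oily additive) at 3.12, 6.25 or 12.5. These doses are in mg/kg in the sample labels and in mg/mL in the series' design text, and are given here without a unit. Every animal received 50 µL into the trachea each day for 14 days and was killed on day 15, and the lung was taken after bronchoalveolar lavage. No genetic change is named for any group, and the animals' age is not given in the sources used here. Saline served PG and 10% ethanol served VEA as the control, per the labels, in which no vehicle of VEA is named. Animals are numbered as in the labels.

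P450 enzymes insert 1 atom of oxygen into lipophilic compounds, with electrons handed on by the reductase Por and by cytochrome b5, and flavin monooxygenases oxidise nitrogen and sulphur atoms in a similar way. Epoxide hydrolases, aldehyde oxidases and monoamine oxidases act on reactive groups, and sulfotransferases, glucuronosyltransferases and methyltransferases attach polar groups that ease excretion. In the lung much of this activity lies in club cells of the small airways, while the aryl hydrocarbon receptor, a ligand-activated transcription factor, switches on Cyp1a1 and Cyp1b1 and is held in check by its repressor.

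Libraries held 8778028 to 11783151 counts over 14843 to 15992 detected genes. Levels are CPM, a gene's counts relative to the TMM-scaled library total, and 1 CPM stood for 8.21 to 13 counts. Reads came from transcript 3′ ends. Ribosomal Rn45s took 14.59% to 26.07% and haemoglobin transcripts 4.056% to 13.76% of the counts. Nothing in the labels says more of the animals' separate origin than their numbers. The p-values set each difference against the spread between animals within groups, estimated over all 21 libraries. They reach no further than these animals.

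Of the 37 genes, 32 had enough counts to be tested and 5 did not. The P450 enzyme Cyp4f17 had 30 counts over all 21 libraries, Cyp2u1 had 13, and Ahrr had 13, with at most 3 in 1 library. The sulfotransferase Sult1c1 had 15 counts, 14 of them in saline animal 10. Ugt1a7c, a glucuronosyltransferase of the Ugt1a locus on chromosome 1, had 0 counts in every library, where 3 counts would stand for 0.231 to 0.365 CPM. Its transcript shares its last exons with the other Ugt1a genes (1444 exonic bases with Ugt1a6b), and 99.72% of the counts listed for the locus, 11554, stood on Ugt1a6b. Ugt1a6b was lower after VEA at every dose, with changes of -1.17 ± 0.21, -1.45 ± 0.21 and -0.96 ± 0.21 on the log2 scale (± SE, as for all log2 changes, 3 animals per group; edgeR adjusted p = 0.000628, 4.09e-05 and 0.00223), and did not pass the test after PG. Which of the locus's transcripts these counts came from cannot be told apart.

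A gene is called here where edgeR's quasi-likelihood test gave an adjusted p (Benjamini-Hochberg, over the 14727 genes tested) below 0.05. In bulk lung RNA, fewer cells of a type and less RNA per cell cannot be told apart. In the 6 comparisons with a control, 19 of the 32 tested genes were called at least once, always lower than the control, and 13 were never called. Because the set was chosen with earlier results known, the shares of all genes given beside its counts are a scale and not a test. After PG 1100 8 genes were lower than after saline and 0 were higher, where 3.23% of all genes tested were called lower and 4.09% higher. The median log2 change of the 32 was -0.485, beside 0.00607 for all genes. After PG 826 0 of 32 were called, where 0.136% of all genes were called in either direction; 4 had an unadjusted p below 0.05, and DESeq2 and limma-voom also called 0. Against ethanol, 9 genes were lower after VEA 3.12 (2.09% of all genes were lower and 3.42% higher), 9 after VEA 6.25 (2.25% and 3.51%) and 15 after VEA 12.5 (4.23% and 5.48%), and 0 were higher at any dose. The medians of the 32 were -0.612, -0.539 and -0.777, beside -0.00683, -0.00271 and -0.0143 for all genes. The 3 VEA comparisons share the same ethanol animals. Between ethanol and saline 0 members were called, as were 0% of all genes; 4 members had an unadjusted p below 0.05, and DESeq2 and limma-voom called 0. The ethanol animals lay above all saline animals in 4 genes (4.69% of all genes), Aox1, Cyp1b1, Cyp2d22 and Sult1a1.

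**Figure D1:**
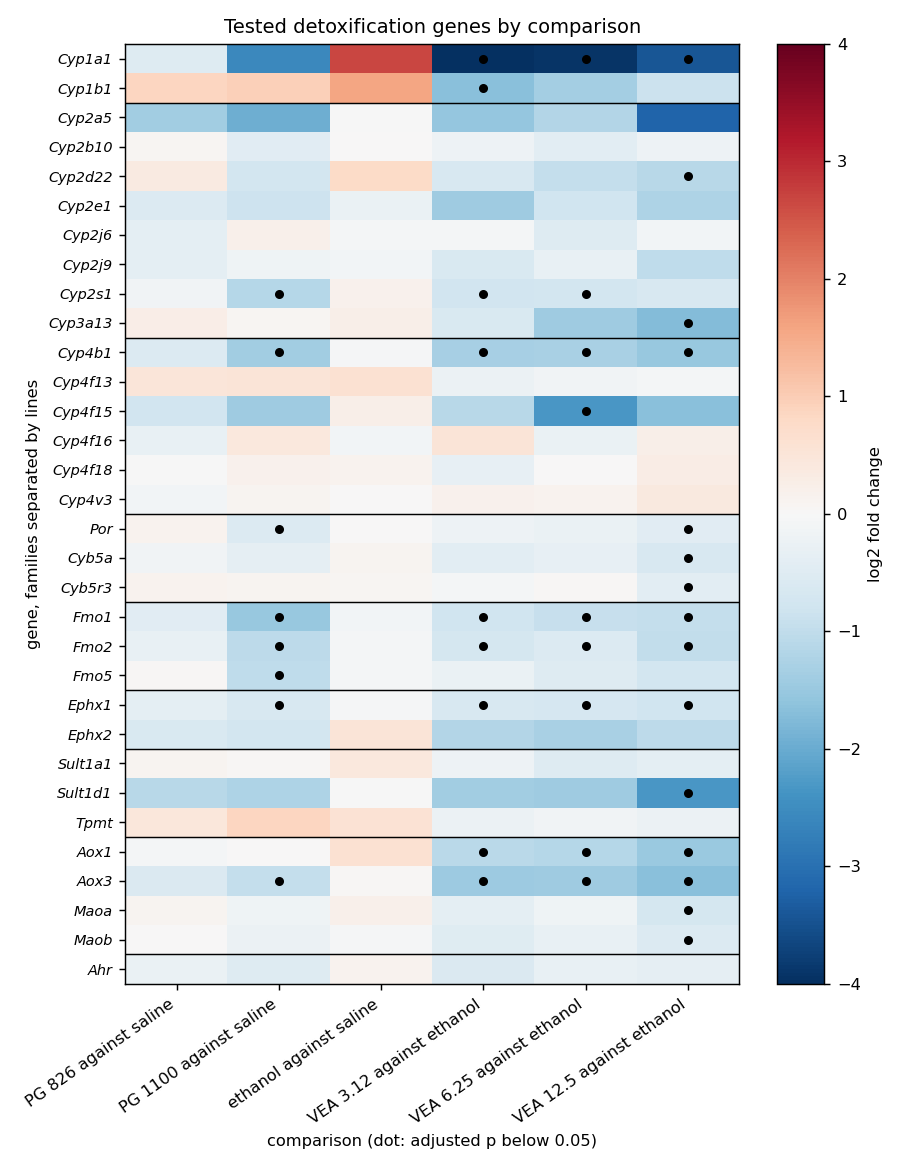
Log2 fold changes (colour) of the 32 tested genes (rows, families separated by lines) in the 6 comparisons with a control (columns); dots mark adjusted p below 0.05. All dots lie on lower values, with 8 in the PG 1100 column and 9, 9 and 15 in the VEA columns.

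Counting genes whose 3 treated animals all lay below the 3 controls gave 11 of 32 after PG 1100 (9.69% of all genes), and 18, 20 and 21 after VEA 3.12, 6.25 and 12.5 (11.8%, 11.5% and 14.8% of all genes). After PG 826 the count was 5 (6.67% of all genes). Single animals moved some counts of called genes, which were 9 at VEA 6.25 and 15 at VEA 12.5 with all animals. VEA 6.25 gave 5 called genes without ethanol 12, 5 without ethanol 13 and 4 without VEA 65. VEA 12.5 gave 9 called genes without VEA 70. With saline in place of ethanol as the control, 5, 6 and 10 genes were called lower after VEA 3.12, 6.25 and 12.5 (2.27%, 2.13% and 4.36% of all genes were called lower). The genes lower at 3.12 by that control were Cyp4b1, Fmo1, Fmo2, Ephx1 and Aox3. These comparisons share the saline animals with those of PG.

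Promoters of 4 genes are shown because they set side by side the pair of classic receptor targets, Cyp1a1 and Cyp1b1, and a pair that was lower after both agents, Cyp4b1 and Aox3. Each is the 250 bases before the RefSeq start of the gene (assembly GRCm38.p6), written 5′ to 3′ on the gene's strand. Capitals mark GCGTG, the core letters of the aryl hydrocarbon receptor's response element, on either strand (CACGC on the other), and TATAAA, the TATA box; these motifs do not overlap. Cyp1a1 lies at chr9:57697363-57697612 on the plus strand, Cyp1b1 at chr17:79715062-79715311 on the minus strand, Cyp4b1 at chr4:115647722-115647971 on the minus strand and Aox3 at chr1:58112886-58113135 on the plus strand. GENCODE, from which the gene spans given beside the levels are taken, starts Cyp1a1 further upstream than RefSeq.
Cyp1a1: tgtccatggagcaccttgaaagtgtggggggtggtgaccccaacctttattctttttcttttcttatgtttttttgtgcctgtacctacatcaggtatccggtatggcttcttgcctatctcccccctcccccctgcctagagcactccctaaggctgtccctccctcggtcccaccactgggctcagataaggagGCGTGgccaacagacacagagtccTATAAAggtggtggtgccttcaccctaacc
Cyp1b1: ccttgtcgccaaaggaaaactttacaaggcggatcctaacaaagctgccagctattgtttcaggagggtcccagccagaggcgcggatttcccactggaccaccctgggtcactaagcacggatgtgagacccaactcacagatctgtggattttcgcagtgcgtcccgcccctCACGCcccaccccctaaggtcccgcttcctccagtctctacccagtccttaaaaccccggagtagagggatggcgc
Cyp4b1: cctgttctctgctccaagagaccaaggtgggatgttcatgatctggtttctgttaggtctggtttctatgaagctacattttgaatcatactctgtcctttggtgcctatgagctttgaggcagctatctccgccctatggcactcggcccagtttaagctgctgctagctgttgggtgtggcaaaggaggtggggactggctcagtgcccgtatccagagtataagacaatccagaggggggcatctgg
Aox3: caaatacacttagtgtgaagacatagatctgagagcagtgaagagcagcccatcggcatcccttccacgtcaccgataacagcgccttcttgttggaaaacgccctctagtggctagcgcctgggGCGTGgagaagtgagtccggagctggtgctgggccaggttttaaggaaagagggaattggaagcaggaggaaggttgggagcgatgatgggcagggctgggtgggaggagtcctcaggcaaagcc
GCGTG stood once before Cyp1a1, Cyp1b1 and Aox3 and not before Cyp4b1, and TATAAA stood once before Cyp1a1. Of the 37 genes 28 had a promoter in the RefSeq table, with 29 windows in all, and 12 of the windows held GCGTG, which 28.2% of 32851 mouse windows of that length hold. TATAAA was in 6 of the 29 and in 12.4% of all. A match is a run of letters, not a binding site.

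The receptor gene Ahr (chr12:35497974-35535038) was expressed in every animal and was not called in any comparison. Its levels were 32.0, 18.6 and 26.4 CPM after saline, 23.2, 19.4 and 21.4 after PG 826 and 19.3, 19.4 and 14.9 after PG 1100. They were 27.6, 26.8 and 31.4 CPM after ethanol, 15.6, 19.9 and 22.2 after VEA 3.12, 27.1, 19.3 and 23.1 after VEA 6.25 and 24.4, 17.8 and 24.6 after VEA 12.5. The ethanol animals lay above those of VEA 3.12 and VEA 12.5 and overlapped those of saline and VEA 6.25. The largest difference was that of VEA 3.12 (-0.57 ± 0.21, adjusted p = 0.106). Ahrr, the repressor, had 0 counts in every saline, VEA 3.12 and VEA 6.25 animal. The 3 PG 826 animals had 3, 2 and 1 counts, and PG 1100 animal 28, ethanol 14 and VEA 70 had 2, 3 and 2, too few to compare.

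Cyp1a1 (chr9:57687928-57703824), the P450 enzyme most strongly induced by aryl hydrocarbons, had 4.06, 55.3 and 44.0 CPM in ethanol animals 12, 13 and 14. Saline animals 6, 8 and 10 had 6.61, 7.67 and 2.04 CPM, so ethanol 13 and 14 stood above every other library of the study and ethanol 12 lay within the saline range. PG 826 animals had 5.26, 1.83 and 4.27 CPM. PG 1100 animals had 0.387, 1.33 and 1.00 CPM, all below saline. VEA animals had 1.52, 2.15 and 2.87 CPM at 3.12, 2.81, 2.30 and 1.69 at 6.25 and 1.39, 2.84 and 5.38 at 12.5. The lower VEA doses lay below all ethanol animals, while VEA 12.5 overlapped ethanol through VEA 70 and ethanol 12, and every VEA dose overlapped saline.

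Cyp1a1 was lower after VEA 3.12 (-3.98 ± 0.79, adjusted p = 0.00617), VEA 6.25 (-3.91 ± 0.79, adjusted p = 0.00718) and VEA 12.5 (-3.43 ± 0.75, adjusted p = 0.00699), on the log2 scale, each against the same 3 ethanol animals. Over the alternatives the adjusted p ran from 1.53e-20 to 0.39, 7.48e-20 to 0.419 and 6.21e-17 to 0.604. Against saline the same VEA animals gave -1.31, -1.25 and -0.76 (adjusted p = 0.39, 0.419 and 0.604). Against saline, then, no VEA dose was called for Cyp1a1, and a fit of only the groups compared also ended the calls (adjusted p = 0.153, 0.167 and 0.164). Leaving out VEA 65 ended the call at 6.25 (adjusted p = 0.0528), and limma-voom ended those at 3.12 and 6.25 (0.0639 and 0.0795). The PG 1100 difference did not pass (-2.58 ± 0.87, adjusted p = 0.0875), with a 95% interval of -4.44 to -0.73.

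Between ethanol and saline, Cyp1a1 differed by 2.67 ± 0.72 (adjusted p = 0.592; 8.44e-09 to 1 over the alternatives). It passed without ethanol 12, the low animal (3.20, adjusted p = 0.00159), without the 3 libraries with the most Bpifa1, ethanol 12 among them (0.0114), and with no count filter (8.44e-09). Cyp1b1 (chr17:79701537-79715061), the other family 1 enzyme, did not share that order: ethanol animals 12, 13 and 14 had 6.92, 6.37 and 6.04 CPM, with ethanol 12 the highest. Saline animals had 1.18, 3.04 and 2.24 CPM, all below ethanol, and the difference of 1.58 ± 0.45 did not pass (adjusted p = 0.592; 0.123 to 1 over the alternatives). PG animals had 3.07, 4.87 and 3.65 CPM at 826 and 4.35, 3.10 and 5.01 at 1100, above saline and below ethanol. After VEA 3.12 Cyp1b1 stood at 2.28, 1.94 and 1.88 CPM and was lower than after ethanol (-1.66 ± 0.45, adjusted p = 0.0202). VEA 6.25 animals had 2.91, 2.51 and 2.05 CPM and VEA 12.5 animals 4.17, 3.82 and 2.69, also below ethanol but not called (adjusted p = 0.0596 and 0.235). The VEA 3.12 call of Cyp1b1 ended without any 1 of ethanol 12, ethanol 13, VEA 56, VEA 57 or VEA 59 (adjusted p = 0.0622, 0.0539, 0.0549, 0.0658 and 0.0811; 0.00167 to 0.965 over the alternatives). Against saline the Cyp1b1 difference at VEA 3.12 was -0.07 (adjusted p = 0.965).

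Ethanol 13 and 14 also stood above ethanol 12 in Nqo1, a quinone reductase and another receptor target, which is no member of the set. Nqo1 had 6.92, 17.6 and 19.4 CPM in ethanol 12, 13 and 14, against 3.89 to 7.91 after saline and 2.43 to 4.94, 2.48 to 2.89 and 1.62 to 3.96 after VEA 3.12, 6.25 and 12.5. Ethanol 13 and 14 were thus the highest 2 libraries of the study for both genes. Ethanol 12 also stood apart in Bpifa1, a secreted protein of the large airways (2534 CPM, against 432 and 233 in ethanol 13 and 14), and ethanol 13 was among the 3 libraries with the fewest detected genes (15157). Whether either bears on Cyp1a1 was not tested.

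**Figure D2:**
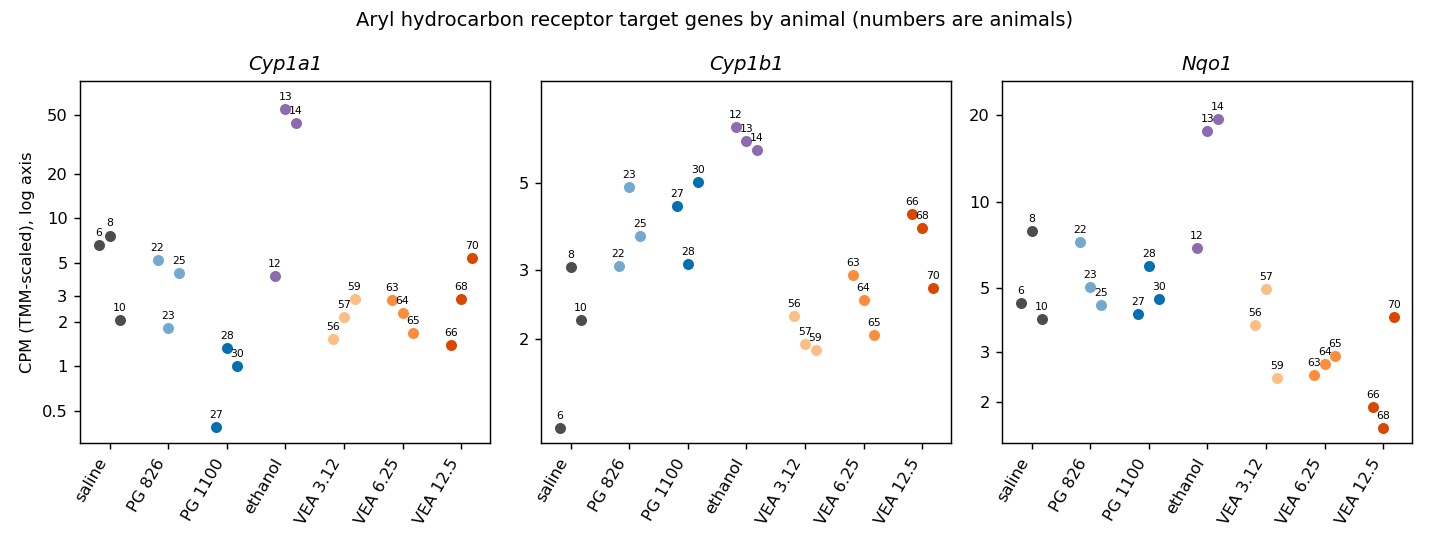
CPM (log axis) of Cyp1a1, Cyp1b1 and Nqo1 in each animal (points, numbered as in the labels) of the 7 groups. Ethanol 13 and 14 stand above all other animals in Cyp1a1 (55.3 and 44.0 CPM) and Nqo1 (17.6 and 19.4 CPM), while the 3 ethanol animals lie close together in Cyp1b1 (6.04 to 6.92 CPM).

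The spread among the ethanol animals was wide in few genes of the set. The range of log2 CPM within ethanol was the widest of the 7 groups for 3 of the 32 genes, where it was the widest for 14.7% of all genes. These were Cyp1a1 (3.70), the thiopurine methyltransferase Tpmt (1.52) and the monoamine oxidase Maoa (0.671). The median range among the 32 genes, with that of all genes tested in brackets, was 0.42 (0.534) in ethanol and 0.501 (0.616) in saline. It was 0.369 (0.464) in PG 826 and 0.504 (0.596) in PG 1100. In VEA 3.12, 6.25 and 12.5 it was 0.587 (0.497), 0.599 (0.528) and 0.507 (0.414). Tpmt followed Cyp1a1 in order, with 3.07, 9.18 and 8.09 CPM in ethanol 12, 13 and 14, while Maoa did not (65.1, 40.8 and 51.2 CPM). Ethanol 12, 13 and 14 were the lowest ethanol animal for 12, 11 and 9 of the 32 genes and the highest for 10, 11 and 11. For Cyp2b10, Cyp2d22 and Sult1a1 the ethanol animals were close to each other, with ranges of 0.0988, 0.128 and 0.0544. Sult1a1, a phenol sulfotransferase, had 25.1, 25.2 and 26.1 CPM after ethanol, above all saline animals (16.0 to 20.3 CPM), and the difference did not pass (0.43 ± 0.21, adjusted p = 0.802).

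Among P450 families 2 and 3, Cyp2s1 (chr7:25802475-25816913), an enzyme of epithelia that acts on retinoids and lipid peroxides, was called in 3 of the 6 control comparisons. It had 22.0, 17.6 and 21.4 CPM after saline, 20.6, 16.1 and 18.8 after PG 826 and 9.47, 8.20 and 10.0 after PG 1100, with PG 1100 below both, and fell by 1.14 ± 0.23 (adjusted p = 0.000888) after PG 1100. Ethanol animals had 25.4, 21.6 and 21.7 CPM, and VEA animals 16.9, 14.3 and 9.38 at 3.12, 15.4, 14.0 and 11.8 at 6.25 and 16.7, 14.8 and 12.2 at 12.5, all below ethanol. The difference passed the test at 3.12 (-0.75 ± 0.22, adjusted p = 0.0375) and 6.25 (-0.73 ± 0.22, adjusted p = 0.043) and not at 12.5 (-0.65 ± 0.22, adjusted p = 0.054). The VEA 3.12 call ended without any single animal but VEA 56 (adjusted p = 0.0681 to 0.243; 0.0143 to 0.243 over the alternatives). The VEA 6.25 call ended without any 1 of the 6 animals (adjusted p = 0.053 to 0.19; 0.0167 to 0.217 over the alternatives). With saline as the control neither VEA call of Cyp2s1 held (adjusted p = 0.12 and 0.14).

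Cyp3a13, the lung's member of the drug-oxidising family 3, had 5.27, 6.16 and 6.37 CPM after ethanol and 1.16, 2.60 and 1.60 after VEA 12.5, a fall of 1.73 ± 0.45 (adjusted p = 0.00981) that ended without VEA 66 or VEA 70 (adjusted p = 0.0709 and 0.0536; 0.00171 to 0.0709 over the alternatives). Cyp2d22, a relative of the human drug-oxidising CYP2D6 enzyme, fell by 1.11 ± 0.32 (adjusted p = 0.018) after VEA 12.5, from 12.6, 13.1 and 13.8 to 8.33, 5.69 and 4.21 CPM. Saline animals had 8.19, 7.43 and 7.69 CPM of Cyp2d22, which VEA 12.5 overlapped, and with saline as the control the call was gone (adjusted p = 0.56; 0.00627 to 0.56 over the alternatives). It also ended without ethanol 14, VEA 68 or VEA 70 (adjusted p = 0.0562, 0.0811 and 0.143). Cyp2b10, a phenobarbital-type target of the nuclear receptor CAR, kept to 104 to 142 CPM after saline and 84.6 to 109.6 after PG 1100 and was not called against a control. Cyp2j6 and Cyp2j9, epoxygenases of arachidonic acid, and Cyp2e1, the ethanol-oxidising P450, were not called either. Cyp2e1 had 8.34, 5.40 and 16.3 CPM after ethanol and 6.31, 9.86 and 20.2 after saline, overlapping ranges.

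Within family 4, which mostly hydroxylates fatty acids at their ends, Cyp4b1 (chr4:115624725-115647723), a lung enzyme that also activates furans and aromatic amines, fell after PG 1100 and at every VEA dose. It had 337, 341 and 339.9 CPM after saline, 217, 248 and 237 after PG 826 and 83.6, 125 and 184 after PG 1100. None of these 3 groups overlapped, and PG 1100 lay lowest. Ethanol animals had 358, 343 and 290.0 CPM, against 104, 139 and 148 after VEA 3.12, 147, 115 and 141 after 6.25 and 114, 114 and 117 after 12.5, all below ethanol and overlapping each other. It fell by 1.38 ± 0.17 (adjusted p = 1.96e-06) after PG 1100, and changed by -1.34 ± 0.17, -1.30 ± 0.17 and -1.52 ± 0.17 after the VEA doses (adjusted p = 3.72e-06, 7.37e-06 and 2.38e-07). The PG 826 difference of -0.54 ± 0.17 did not pass (adjusted p = 0.282).

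Cyp4f15, which oxidises leukotrienes and other lipids, was called in 1 of the 6 control comparisons, that of VEA 6.25. It had 6.15, 8.96 and 2.48 CPM after ethanol and 1.40, 1.99 and 0 after VEA 6.25 (-2.34 ± 0.65, adjusted p = 0.0238), where VEA 65 held 0 counts. The call ended without VEA 65 (adjusted p = 0.105), ethanol 12 (0.062) or ethanol 13 (0.145), with 0.00373 to 0.362 over the alternatives. Cyp4f13, Cyp4f16, Cyp4f18 and Cyp4v3, further fatty acid and eicosanoid hydroxylases, were never called. Their log2 changes in the 6 comparisons ran from -0.33 (Cyp4f18) to 0.61 (Cyp4f13).

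Por (chr5:135670033-135735326), the reductase that supplies microsomal P450 enzymes with electrons, had 152, 146 and 155 CPM after saline, 169, 160.0 and 168 after PG 826 and 122, 71.8 and 116 after PG 1100. PG 1100 lay below both groups, and the fall against saline was 0.55 ± 0.14 (adjusted p = 0.0107). Without PG 28, its lowest animal, that call was gone (adjusted p = 0.167; 0.0023 to 0.167 over the alternatives). After VEA 12.5 Por fell by 0.46 ± 0.14 (adjusted p = 0.0269), from 154, 161 and 145 to 111, 115 and 107 CPM. That call ended without any 1 of the animals but ethanol 14 (adjusted p = 0.0726 to 0.121; 0.00272 to 0.121 over the alternatives). Cyb5a, cytochrome b5, which passes a further electron to some P450 enzymes, had 349, 423 and 401 CPM after ethanol and 244, 255 and 258 after VEA 12.5 and fell by 0.63 ± 0.13 (adjusted p = 0.00139), with no overlap. Its reductase Cyb5r3 fell by 0.42 ± 0.13 (adjusted p = 0.0363), from 319.7, 343 and 351 to 249, 266 and 243 CPM. The Cyb5r3 call ended without any 1 of the 6 animals (adjusted p = 0.056 to 0.152; 0.00295 to 0.152 over the alternatives). The Cyb5r3 call also ended with saline as the control (adjusted p = 0.0958). All 3 electron carriers were therefore called lower after VEA 12.5 (4.23% of all genes were), and 0 of 3 after VEA 3.12 or 6.25 (2.09% and 2.25%). Compared directly, VEA 12.5 and VEA 3.12 did not differ past the test in Por, Cyb5a or Cyb5r3 (adjusted p = 0.945, 0.999 and 0.823).

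Of the flavin monooxygenases 3 of 3 were lower after PG 1100 (3.23% of all genes were) and 2 of 3 at each VEA dose (2.09%, 2.25% and 4.23%). Fmo1 (chr1:162829561-162866610) had 141, 148 and 139.5 CPM after saline, 110.4, 96.4 and 106 after PG 826 and 37.5, 55.7 and 56.2 after PG 1100. The 3 groups did not overlap and stood in order of dose. Against saline Fmo1 fell by 1.52 ± 0.16 (adjusted p = 3.5e-08) after PG 1100, and the PG 826 difference of -0.46 ± 0.15 did not pass (adjusted p = 0.288). Ethanol animals had 154, 103 and 138 CPM and VEA animals 74.9, 73.6 and 77.2 at 3.12, 83.5, 62.5 and 63.4 at 6.25 and 69.8, 67.8 and 65.4 at 12.5. Every VEA animal lay below every ethanol animal, with changes of -0.81 ± 0.15, -0.92 ± 0.15 and -0.96 ± 0.15 (adjusted p = 0.000697, 0.000136 and 2.85e-05).

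Fmo2 (chr1:162874317-162898726), the main flavin monooxygenase of the mouse lung, had 274, 271 and 238 CPM after saline, 191, 208 and 242 after PG 826 and 116, 108 and 155 after PG 1100. PG 1100 lay below both, while PG 826 overlapped saline, and the PG 1100 fall was 1.04 ± 0.15 (adjusted p = 5.91e-06). Ethanol animals had 285, 249.8 and 203 CPM. VEA animals had 129, 158 and 163 CPM at 3.12, 171, 162 and 171 at 6.25 and 139.9, 122 and 109 at 12.5, all below ethanol. Fmo2 changed by -0.71 ± 0.15, -0.55 ± 0.15 and -0.99 ± 0.15 (adjusted p = 0.0017, 0.0179 and 9.77e-06). The VEA 6.25 call ended without ethanol 12 (adjusted p = 0.139), ethanol 13 (0.0621), VEA 64 (0.0838) or VEA 65 (0.0546), with 0.00605 to 0.139 over the alternatives. Fmo5, a family member that inserts oxygen into carbonyl compounds, had 18.1, 9.62 and 20.8 CPM after saline and 9.37, 7.64 and 6.79 after PG 1100 (-1.03 ± 0.30, adjusted p = 0.0296). Its call ended without saline 6 (adjusted p = 0.0867), saline 10 (0.169), PG 28 (0.114) or PG 30 (0.105), with 0.00312 to 0.339 over the alternatives, and it was not called after VEA.

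**Figure D3:**
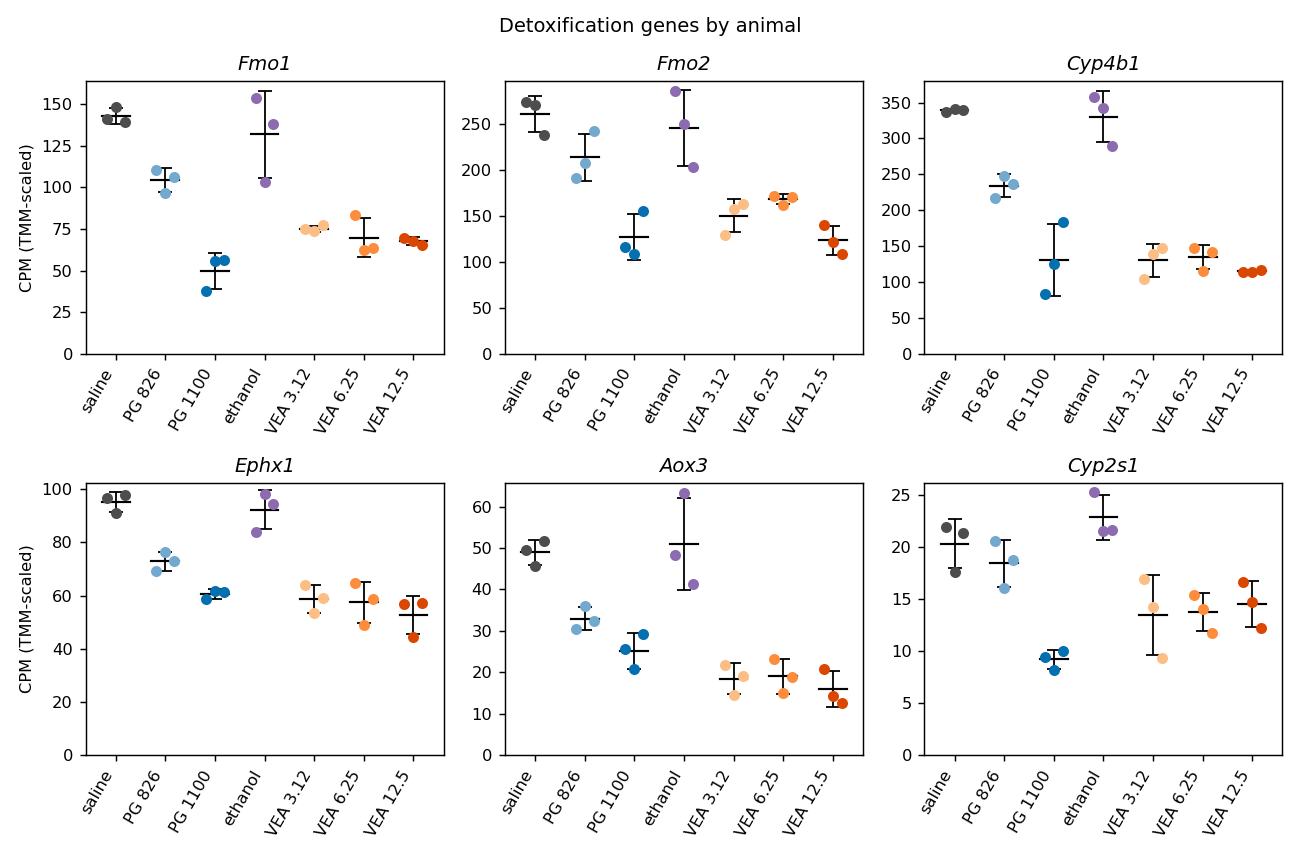
CPM of Fmo1, Fmo2, Cyp4b1, Ephx1, Aox3 and Cyp2s1 in each of 21 animals (points) of the 7 groups, with the group mean (line) and SD (bar, n = 3); axes start at 0. All PG 1100 points lie below all saline points and all VEA points below all ethanol points in each of the 6 panels.

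Ephx1 (chr1:180976210-181020904), the microsomal epoxide hydrolase, had 96.8, 91.0 and 97.6 CPM after saline, 69.1, 76.5 and 72.9 after PG 826 and 58.5, 61.8 and 61.5 after PG 1100, 3 groups in order of dose without overlap. The PG 1100 fall was 0.65 ± 0.14 (adjusted p = 0.00177), and the PG 826 difference of -0.38 ± 0.14 did not pass (adjusted p = 0.34). It had 84.0, 98.2 and 94.5 CPM after ethanol, 63.9, 53.3 and 59.0 after VEA 3.12, 64.5, 49.1 and 58.5 after 6.25 and 56.8, 44.3 and 57.0 after 12.5. All VEA animals lay below ethanol, with changes of -0.65 ± 0.14, -0.68 ± 0.14 and -0.81 ± 0.14 on the log2 scale (adjusted p = 0.00268, 0.00166 and 9.82e-05). Ephx2, the soluble hydrolase of fatty acid epoxides, had 1.04 to 8.37 CPM over all libraries and was not called.

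Aldehyde oxidases are molybdenum enzymes that oxidise aldehydes and nitrogen-containing rings, and both in the set lie on chromosome 1. Aox3 (chr1:58113130-58200698) had 49.4, 45.8 and 51.8 CPM after saline, 30.6, 35.9 and 32.4 after PG 826 and 25.7, 20.7 and 29.2 after PG 1100, again without overlap, and fell by 0.96 ± 0.20 (adjusted p = 0.00165) after PG 1100. Ethanol animals had 48.3, 63.2 and 41.3 CPM and VEA animals 21.9, 14.6 and 19.1 at 3.12, 23.3, 15.0 and 18.9 at 6.25 and 20.8, 14.4 and 12.7 at 12.5, all below ethanol. Its changes were -1.46 ± 0.21, -1.42 ± 0.21 and -1.67 ± 0.21 (adjusted p = 1.03e-05, 1.6e-05 and 4.85e-07).

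Aox1 (chr1:58029931-58106413) had 10.5, 9.98 and 7.20 CPM after saline, 12.7, 7.31 and 6.14 after PG 826 and 8.79, 9.63 and 9.46 after PG 1100, overlapping ranges that gave no call (0.01 ± 0.33, adjusted p = 0.992 after PG 1100). Ethanol animals had 13.1, 14.0 and 14.8 CPM, against 9.13, 6.99 and 3.64 after VEA 3.12, 8.10, 4.61 and 6.14 after 6.25 and 4.01, 6.99 and 4.04 after 12.5. VEA lay below ethanol in every animal, with changes of -1.08 ± 0.33 at 3.12, -1.15 ± 0.33 at 6.25 and -1.48 ± 0.33 at 12.5 (adjusted p = 0.0462, 0.0316 and 0.00274). With saline as the control the differences were -0.48, -0.55 and -0.88, none of which passed (adjusted p = 0.47, 0.386 and 0.0907, the highest over the alternatives). The VEA 3.12 call ended without any 1 of the animals but VEA 56 (adjusted p = 0.0818 to 0.256), and the VEA 6.25 call without any 1 but VEA 63 (0.0623 to 0.172).

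The monoamine oxidases Maoa and Maob, mitochondrial enzymes that break down amine transmitters and dietary amines, were lower after VEA 12.5. Maoa fell by 0.71 ± 0.18 (adjusted p = 0.00646), from 65.1, 40.8 and 51.2 CPM to 31.6, 30.1 and 34.5, and the call ended without ethanol 12, its highest animal (adjusted p = 0.0897; 0.00165 to 0.105 over the alternatives). With saline as the control the Maoa call ended as well (adjusted p = 0.052). Maob fell by 0.56 ± 0.18 (adjusted p = 0.0385), from 51.0, 44.1 and 57.9 CPM to 38.3, 38.4 and 27.1. Any 1 animal but ethanol 13 ended the Maob call (adjusted p = 0.053 to 0.271; 0.0184 to 0.271 over the alternatives).

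Of the conjugation enzymes only the sulfotransferase Sult1d1, which acts on catecholamines and phenols, was called. It had 51.6, 31.9 and 22.1 CPM after ethanol and 4.40, 7.72 and 8.84 after VEA 12.5, a fall of 2.33 ± 0.67 (adjusted p = 0.0408) without overlap. The call ended without ethanol 12 (adjusted p = 0.135), ethanol 13 (0.0764), VEA 66 (0.148), VEA 68 (0.115) or VEA 70 (0.0965), with 2.23e-19 to 0.148 over the alternatives. Saline animals had 14.5, 20.9 and 70.5 CPM of Sult1d1 and PG 1100 animals 9.28, 4.98 and 30.8, each with 1 animal far above the others. Cyp2a5, a coumarin and nicotine hydroxylase of liver and airway, had such an animal in saline and PG 1100 too: 4.24, 5.24 and 48.3 CPM after saline, 0.966, 2.21 and 11.8 after PG 1100, 22.9, 20.8 and 13.1 after ethanol and 1.47, 3.49 and 1.18 after VEA 12.5. Cyp2a5 was not called although its log2 change was as large as -3.20 ± 1.04 after VEA 12.5 (adjusted p = 0.0692).

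These animals, saline 10 and PG 1100 animal 30, and ethanol 12 were also the 3 libraries with the most Bpifa1, 1745 to 2579 CPM against 64.7 to 522 in the other 18. They had the most Krt15, a basal cell keratin, as well (25.1 to 126 CPM against 0 to 7.83). Sult1d1 was 30.8 to 70.5 CPM in these 3 libraries and 4.40 to 31.9 in the other 18, and Cyp2a5 11.8 to 48.3 against 0.966 to 20.8. Each of the 3 animals was the highest of its group for Sult1d1, Cyp2a5 and Ephx2. For Cyp2e1 this held for saline 10 and PG 1100 animal 30 (20.2 and 12.9 CPM). It did not hold for ethanol 12, which had 8.34 CPM of Cyp2e1 against 16.3 in ethanol 14. The 14 counts of Sult1c1 were in saline 10. In VEA 12.5, where Sult1d1 and Cyp2a5 were lowest, Bpifa1 was 64.7 to 119 CPM. Without the 3 libraries, a choice made after seeing the data, VEA 12.5 gave 12 genes lower, Sult1d1 and Cyp2a5 among them, where 2.95% of all 14940 genes tested were called lower. VEA 3.12 gave 6 (1.43% of all genes), VEA 6.25 gave 5 (1.29%) and PG 1100 gave 9, Sult1d1 and Cyp1a1 among them (2.32%). The part of large-airway tissue in the levels of these genes was not tested.

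**Figure D4:**
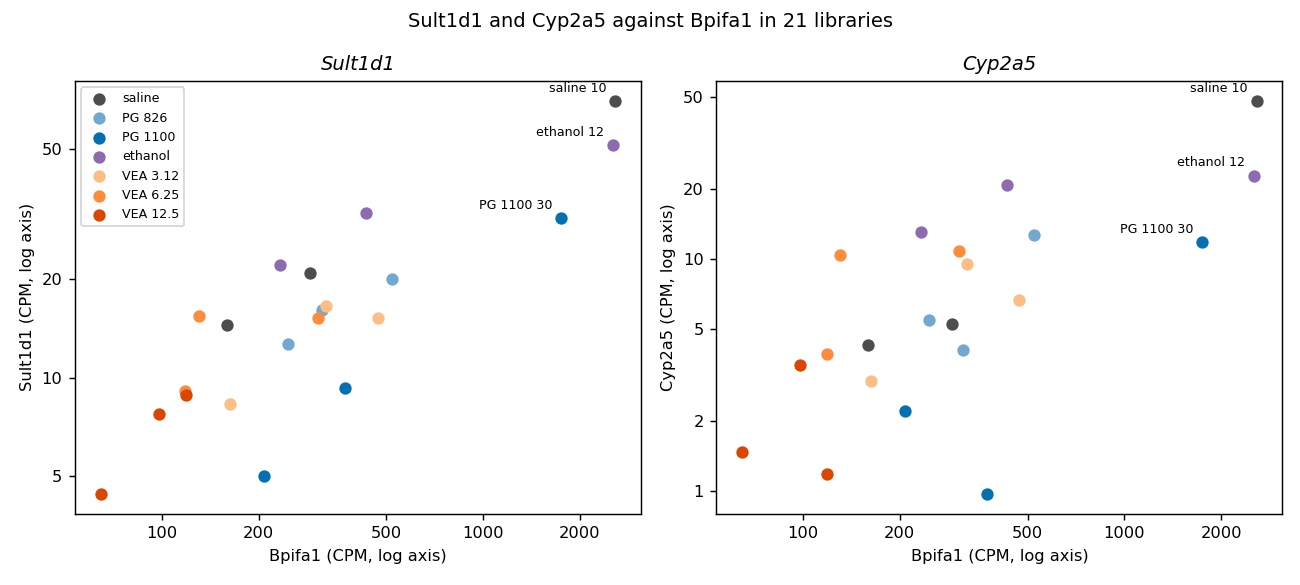
Sult1d1 (left) and Cyp2a5 (right) against Bpifa1, both in CPM on log axes, 1 point per library and colours for the 7 groups. The 3 named libraries lie at 1745 to 2579 CPM of Bpifa1, apart from the other 18 at 64.7 to 522.

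PG 1100 was set directly against PG 826 to compare the doses. Of the 32 genes 8 were lower at 1100 and 0 higher, where 2.71% of all genes were called lower and 2.85% higher. Fmo1 (-1.07 ± 0.15, adjusted p = 2.33e-05), Fmo2 (-0.76 ± 0.15, adjusted p = 0.000921), Cyp4b1 (-0.84 ± 0.17, adjusted p = 0.00207) and Por (-0.68 ± 0.14, adjusted p = 0.00183) were called under all 14 alternatives. Cyp2s1 (-0.999 ± 0.23, adjusted p = 0.00503) was lost without PG 1100 animal 28 alone (adjusted p = 0.0577; 0.000595 to 0.0577 over the alternatives). Fmo5 (-1.07 ± 0.30, adjusted p = 0.0269) was lost without PG 23, 25, 28 or 30 (0.0562, 0.14, 0.137 and 0.109; 0.00453 to 0.14). Cyp2d22 (-1.09 ± 0.33, adjusted p = 0.0381) was lost without any 1 animal but PG 25 (0.0525 to 0.217; 0.0152 to 0.217). Cyp2b10 (-0.52 ± 0.15, adjusted p = 0.0375) was lost without PG 23, 25, 27 or 28 (0.131, 0.181, 0.09 and 0.203; 0.0168 to 0.203). The count was 5 without PG 826 animal 23 and 4 without PG 1100 animal 28. Ephx1 (-0.27 ± 0.14, adjusted p = 0.316) and Aox3 (-0.39 ± 0.20, adjusted p = 0.319) did not differ past the test between the PG doses.

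VEA 12.5 was compared directly with VEA 3.12, and 0 of the 32 genes, and 0% of all genes, were called. An unadjusted p below 0.05 was reached by Cyb5r3 (-0.34 ± 0.13, adjusted p = 0.823) and Cyp3a13 (-1.10 ± 0.45, adjusted p = 0.847), and DESeq2 and limma-voom called 0 members. The 95% interval of the difference was -0.55 to 0.19 for Cyp4b1, -0.48 to 0.17 for Fmo1, -0.66 to 0.23 for Aox3 and -1.12 to 2.23 for Cyp1a1, on the log2 scale. The higher number of calls at 12.5 is therefore not a measured difference between the doses.

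The VEA 12.5 effect against ethanol was set against the PG 1100 effect against saline in a term for their difference, in which 0 of 32 genes passed (0.19% of all genes did); 7 had an unadjusted p below 0.05, and DESeq2 and limma-voom called 0 members. Aox1 had the smallest unadjusted p of the set, with a difference of -1.49 ± 0.47 (adjusted p = 0.245) and a 95% interval of -2.49 to -0.49. Cyp1b1 differed by -1.81 ± 0.62 (adjusted p = 0.325), Cyp3a13 by -1.80 ± 0.62 (adjusted p = 0.34) and Fmo1 by 0.56 ± 0.21 (adjusted p = 0.416). For Cyp4b1 the interval was -0.67 to 0.37, for Ephx1 -0.57 to 0.26 and for Fmo2 -0.39 to 0.49. No gene of the set was shown to respond differently to the agents, and the intervals leave room for differences of more than 1 on the log2 scale in Aox1, Cyp1b1, Cyp3a13 and others.

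Other genes of these pathways were taken from 5 lists of related genes, also chosen with earlier results of these data known. Beside the counts of all 5 lists, 3.23% of all genes were called lower and 4.09% higher after PG 1100. At VEA 3.12, 6.25 and 12.5, 2.09%, 2.25% and 4.23% were called lower and 3.42%, 3.51% and 5.48% higher. After PG 826, 0.136% were called in either direction. Of 30 other P450 genes 12 were tested, with 2 higher and 1 lower after PG 1100 and 1 each way after every VEA dose. Cyp2f2, the naphthalene-oxidising enzyme of club cells, had a mean of 2365 ± 188 CPM (SD, n = 3) after saline and 934 ± 402 after PG 1100, and changed by -1.34 ± 0.20 after PG 1100 and by -1.24 ± 0.20, -1.24 ± 0.20 and -1.55 ± 0.20 after the VEA doses. Cyp7b1, an oxysterol hydroxylase, went the other way, from 0.909 ± 0.751 CPM after ethanol to 7.86 ± 2.62 after VEA 12.5 (3.10 ± 0.56, adjusted p = 0.00019), and was also higher after VEA 3.12 (2.25 ± 0.56), VEA 6.25 (2.14 ± 0.56) and PG 1100 (1.78 ± 0.52). The call of Cyp7b1 ended without ethanol 13, ethanol 14 or VEA 59 at 3.12 (0.0653, 0.0784 and 0.117; 0.00178 to 0.18 over the alternatives), and without ethanol 13, ethanol 14 or VEA 63 at 6.25 (0.0844, 0.101 and 0.0685; 0.00367 to 0.237). At 3.12 and 6.25, but not at 12.5, the Cyp7b1 call also ended with saline as the control (adjusted p = 0.18 and 0.237). It ended at those lower doses with limma-voom too (0.088 and 0.0935). After PG 1100 the Cyp7b1 call ended without saline 8, saline 10, PG 27 or PG 28 (0.131, 0.0631, 0.053 and 0.081), with 0.0094 to 0.131 over the alternatives. Cyp51, a sterol demethylase, was higher after PG 1100 (0.80 ± 0.19, adjusted p = 0.00613) and lost the call without PG 28 (0.0502; 0.000236 to 0.0502 over the alternatives).

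Of 15 partners and targets of the aryl hydrocarbon receptor 14 were tested, with 1 higher and 1 lower after PG 1100 and VEA 3.12 and 1 higher and 2 lower after VEA 6.25 and 12.5. Nqo1 changed by -1.98 ± 0.41, -2.44 ± 0.43 and -2.55 ± 0.42 at the VEA doses against ethanol (adjusted p = 0.00219, 0.000273 and 5.89e-05). With saline as the control the adjusted p of Nqo1 was 0.522, 0.183 and 0.0895, so that no dose was called. Aldh3a1, an aldehyde dehydrogenase of the airway lining, was lower after PG 1100 (-1.19 ± 0.26, adjusted p = 0.00345), VEA 6.25 (-1.32 ± 0.26, adjusted p = 0.00168) and VEA 12.5 (-1.31 ± 0.26, adjusted p = 0.00078). Its VEA 6.25 call ended without the 3 libraries with the fewest genes (adjusted p = 0.105; 7.1e-08 to 0.105 over the alternatives). Lpcat2, a phospholipid-remodelling acyltransferase, was higher at VEA 3.12 (1.47 ± 0.38, adjusted p = 0.0158), 6.25 (1.46 ± 0.38, adjusted p = 0.0169) and 12.5 (1.73 ± 0.38, adjusted p = 0.00217). Its call ended at 3.12 without ethanol 12, ethanol 14 or VEA 56 (0.0814, 0.0761 and 0.0722; 0.00414 to 0.13 over the alternatives) and at 6.25 without ethanol 12, ethanol 14, VEA 63 or VEA 65 (0.0845, 0.079, 0.0574 and 0.0846; 0.00443 to 0.137). At 3.12 and 6.25, but not at 12.5, the Lpcat2 call also ended with saline as the control (adjusted p = 0.13 and 0.137). It ended at those lower doses with limma-voom too (0.0517 and 0.0762). Of 14 xenobiotic nuclear receptors 10 were tested, and edgeR, DESeq2 and limma-voom called 0 in each of the 6 control comparisons. With edgeR an unadjusted p below 0.05 was reached by 1 receptor after PG 1100 (Ppara), 1 after VEA 12.5 (Nr1h3) and 1 between ethanol and saline (Ppara).

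Of 32 further monooxygenases and conjugation enzymes 22 were tested, and 1 was higher and 3 lower after PG 1100, 0 and 6 after VEA 3.12 and after VEA 6.25, and 1 and 6 after VEA 12.5. Inmt, an amine methyltransferase of the lung, changed by -1.09 ± 0.14 after PG 1100 and by -0.70 ± 0.14, -0.86 ± 0.14 and -1.02 ± 0.14 after VEA. Cbr2, a carbonyl reductase, changed by -0.99 ± 0.20, -1.17 ± 0.20 and -1.29 ± 0.20 after VEA, and by -0.70 ± 0.19 after PG 1100. That PG 1100 call of Cbr2 (adjusted p = 0.0234) ended without saline 8, saline 10, PG 27 or PG 28 (0.0749, 0.103, 0.114 and 0.174; 8.04e-05 to 0.174 over the alternatives). Of 12 genes that supply or break down haem, Alas1, the first enzyme of its synthesis, was higher after PG 826 (0.65 ± 0.14, adjusted p = 0.0379), a call that ended without saline 8 (0.253), saline 10 (0.17), PG 23 (0.221) or PG 25 (0.12), with 0.00263 to 0.253 over the alternatives. Hmox1, the haem-degrading oxygenase, was higher after PG 1100 (2.33 ± 0.46, adjusted p = 0.00208), except in a fit of only the groups compared (0.138; 1.94e-12 to 0.138). Fech, which inserts the iron that completes haem, was lower after PG 1100 (-0.63 ± 0.19, adjusted p = 0.0318) and VEA 12.5 (-0.73 ± 0.19, adjusted p = 0.00816). Its PG 1100 call ended without saline 8, PG 27, PG 28 or PG 30 (0.312, 0.104, 0.0752 and 0.0534; 0.0128 to 0.315 over the alternatives) and its VEA 12.5 call without VEA 68 or VEA 70 (0.0895 and 0.051; 0.00196 to 0.0895).

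Marker lists of lung cell types, chosen with earlier results of these data known, also held called genes. Beside these counts, 3.23% of all genes were called lower and 4.09% higher after PG 1100. At VEA 3.12, 6.25 and 12.5, 2.09%, 2.25% and 4.23% of all genes were called lower and 3.42%, 3.51% and 5.48% higher. Of 12 club cell markers 3 were called lower and 0 higher after PG 1100, and 2, 2 and 3 lower with 0, 0 and 1 higher at VEA 3.12, 6.25 and 12.5. Their summed CPM was 50280 to 69920 after saline, 40540 to 43860 after PG 826, 23040 to 33500 after PG 1100, 48650 to 69910 after ethanol and 27430 to 35630 over the VEA animals. That sum was mostly Scgb1a1, an abundant uteroglobin-type secretory protein of club cells, which held 89.8% of the list's counts. Scgb1a1 had 47440 to 62600 CPM after saline and 20730 to 27850 after PG 1100, ranges that did not overlap. The other 11 include Bpifa1 and Krt15, named above as a protein of the large airways and a basal cell keratin. They summed to 2843 to 7322 after saline, 2311 to 5648 after PG 1100, 3394 to 7555 after ethanol and 2937 to 4728 over the VEA animals, ranges that overlapped. Bpifa1 alone had 2579 CPM in saline 10, 1745 in PG 1100 animal 30 and 2534 in ethanol 12. The overlap is therefore not one of club cell genes alone. The sum of 12 endothelial markers was 2210 to 2565 after saline, 1926 to 2367 after PG 826 and 1349 to 1743 after PG 1100, with 8 lower and 1 higher. It was 2246 to 2487 after ethanol and 1539 to 1680 over the VEA animals, with 4, 4 and 5 lower at the 3 doses. Of 10 fibroblast markers 1 was higher and 1 lower after PG 1100, with a list median of -0.07, and 0, 1 and 1 were higher and 1, 2 and 4 lower at the VEA doses. Inmt, a methyltransferase that is also in one of the pathway lists above, held 46.6% of the counts of that list and had 1758 to 1943 CPM after saline and 736 to 1069 after PG 1100. The other 9 summed to 1454 to 1758 CPM after saline, 1391 to 1567 after PG 1100, 1540 to 1714 after ethanol and 1280 to 1594 over the VEA animals. The 12 macrophage and monocyte markers summed to 1655 to 2948 after saline, 2103 to 2857 after PG 826, 3286 to 5761 after PG 1100, 2084 to 2525 after ethanol and 2789 to 3528 over the VEA animals. Of these markers 7 were higher after PG 1100 and 6, 6 and 9 at the VEA doses, and 0 were lower. Lyz2, which is also in the alveolar type II list, held 76% of the counts of the macrophage and monocyte list. Without Lyz2 the other 11 summed to 430.4 to 513.2 CPM after saline, 519.3 to 654.7 after PG 826 and 676.4 to 870.8 after PG 1100. They summed to 429.6 to 491.2 CPM after ethanol and 705.7 to 1010 over the VEA animals. Of 10 alveolar type II markers 6 were higher after PG 1100 and 2, 1 and 4 at the VEA doses, with 0 lower, and their sum was 28520 to 39900 CPM after saline and 37450 to 58530 after PG 1100. Of 8 alveolar type I markers 1 was lower after PG 1100 and 1, 1 and 4 at the VEA doses, with 0 higher. Of 10 ciliated cell markers 3 were lower after PG 1100 and 3, 4 and 4 at the VEA doses, with 0 higher, and the sum was 721.9 to 946.7 CPM after saline, 466.4 to 733.4 after PG 1100, 626.5 to 850.0 after ethanol and 439.1 to 606.5 over the VEA animals. Of 9 erythroid markers tested 8 were lower after PG 1100 and 1, 2 and 9 at the VEA doses, with 0 higher. Of 8 neutrophil markers 1 was lower after PG 1100 and 1 was higher at each VEA dose. Every marker of these lists passed the count filter except 1 erythroid gene, Ahsp, which was not among the symbols counted. Hepatocyte markers summed to at most 30.9 CPM in any library. The part of these cell types in the falls of Fmo1, Fmo2, Cyp4b1, Ephx1, Aox3 and the other genes was not tested.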

How the data were processed

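RNA from 21 mouse lungs was sequenced as QuantSeq 3′ libraries from 500 ng of total RNA, per the labels. The deposited files hold raw counts per gene symbol, 1 file per library; Bowtie2, bedtools and mm10 are named in the submitters' processing notes, with no versions, and neither the annotation nor the use of strand is given in the sources used here. For 35 symbols listed on several rows the sum was used. The 37 genes and the gene lists were chosen with earlier results of these data known.

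Counts were filtered with filterByExpr, which left 14727 genes, scaled by TMM and fitted in 1 edgeR 4.0.16 quasi-likelihood model over all 21 libraries (R 4.3.3, 14 residual degrees of freedom), after the steps were tested on simulated data. SE is the absolute log2 fold change over the square root of F, and intervals are 95%. DESeq2 1.42.0 and limma-voom 3.58.1 were alternatives, beside RLE scaling, no filter, other controls and leaving out libraries. Pairs of libraries from the same group differed by 8.14 to 40.48 times the sampling noise (chi-square over its degrees of freedom), so none was a copy. A member was named if called in at least 1 of 6 control comparisons, and its animals were all given if called in at least 3 (always for Cyp1a1, Cyp1b1, Ahr and Ahrr). Up to 4 genes per list were named by smallest p. Some genes of the lists are not reported here. Gene positions are from GENCODE M21 (GRCm38), the assembly of mm10. Exons of Cyp2s1, Cyb5r3, Ephx1, Sult1a1, Tpmt, Ahr, Cyp4v3 and Cyp4f18 overlap those of another annotated gene, and reads shared with these or with close relatives (Aox, Cyp2j, Cyp4f) were not tested.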

Additional observations from a re-analysis of the deposited data

How the results depend on the processing

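Of 41 differences called for single members, 21 were called under every alternative tried, 20 lost the call under at least 1, and 0 reversed. DESeq2 ended 0, limma-voom 4, a fit of only the groups compared 7, saline as the VEA control 12, and leaving out 1 animal 17. Counts of called members moved by over 1.5 times as follows. With no count filter they were 3 for PG 826, 2 for VEA 12.5 against VEA 3.12 and 1 for ethanol against saline (0 in each as reported). With saline as the control VEA 3.12 gave 5 in place of 9. VEA 6.25 gave 4 without the 3 libraries with the fewest genes (saline 8, ethanol 13, VEA 65) and 5 without the 3 with the most Bpifa1, and the latter gave 1 for ethanol against saline, Cyp1a1; that alternative was chosen after seeing the data. Leaving out 1 animal gave 6 to 9 for PG 1100, 4 to 7 for PG 1100 against PG 826, 6 to 8 for VEA 3.12, 4 to 9 for VEA 6.25, 9 to 13 for VEA 12.5 and 0 to 1 for ethanol against saline. The cause of these moves was not tested. No paired analysis was possible because the animal numbers differ between all groups. Genes near 1 CPM rest on about 8.21 to 13 counts, which limits Cyp1a1 after PG 1100, Cyp7b1 after ethanol and the lowest libraries of Cyp4f15 and Ephx2. Low counts also limit Cyp3a13 (1.16 to 2.60 CPM) and Cyp2a5 (1.18 to 3.49 CPM) after VEA 12.5.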
